A study of Homo sapiens with 12 samples.

Results

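Groups of messenger RNA libraries were set against each other, the 3 labelled as K562/IM treated with lycorine and the 3 labelled as K562/IM control. Every gene that passed the filter on low counts was kept, which left 13727 genes of the 19447 symbols in the deposited table. K562 is a human chronic myeloid leukemia line that carries the BCR-ABL kinase, and K562/IM is a line derived from it by raising imatinib (IM), an inhibitor of that kinase, step by step and then keeping the cells in 5 µM. Lycorine (L), an alkaloid of Amaryllidaceae plants, was given at 6 µM. The time of exposure before sequencing, and whether imatinib was in the medium of these libraries, are not given in the sources used here. Both groups carry K562 as their cell line, and the labels do not say that the 3 libraries of a group came from separate cultures, so that p-values measure the spread between these libraries, which may be technical. The sample labels number the treated group G2, whereas the drawings of the study number it G6, so it is called the labelled K562/IM+L libraries throughout, and every direction rests on that label. K562 and K562+L (the parental line without and with lycorine, 3 libraries each) are given as levels for context.

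K562 cells are arrested early on the road from a blood progenitor to a red cell, and can be pushed along the erythroid or the megakaryocyte path. Erythroid maturation loads the cell with globin chains and with haem, the iron-bearing ring that is built by enzymes split between mitochondria and cytosol, and fits the membrane with band 3, glycophorins and a spectrin skeleton. BCR-ABL drives growth of these cells through the RAS-ERK and STAT5 pathways, whose strength is commonly read from their feedback genes (Sprouty, DUSP and ETS-family genes for ERK, and PIM and SOCS-family genes for STAT5).

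Total counts ran from 75935140 to 98445779 in K562/IM and from 75093844 to 92154227 in the labelled K562/IM+L libraries. Levels are given as CPM, a gene's counts as a rate of the normalised library total, for replicates 1, 2 and 3 in that order. The third labelled library stood apart, with a median absolute log2 difference of 0.239 and 0.278 from the other two, which differed from each other by 0.107. The erythroleukemia markers used as a check (10 genes) summed to 2860 to 3102 CPM in K562/IM and 32860 to 46130 in the labelled libraries. The 4 T cell markers summed to 21.9 to 23.5 CPM in K562/IM and 0.491 to 0.809 in the labelled libraries, and the 4 fibroblast markers to 19.8 to 24.9 and 1.02 to 1.34. In K562/IM the T cell sum was nearly all CD3D, at a mean of 22 CPM. CD3D and CD3G were called lower, CD3E was not called (log2 fold change 2.05) and CD2 was not tested. The monocyte and granulocyte markers (7 genes, chiefly LYZ, lysozyme) summed to 166 to 174 and 76.4 to 81.5 CPM, and the 3 epithelial ones (chiefly EPCAM) to 43 to 48.1 and 84.2 to 104. B cell, endothelial and hepatocyte markers stayed under 3 CPM in every library of both groups. ABCB1, the gene of the drug efflux pump P-glycoprotein on chromosome 7 from 87503633 to 87713323 of GRCh38, stood at 23, 21.9 and 25.9 CPM in K562/IM and at 0.705, 0.488 and 1.06 in the labelled libraries (log2 fold change -4.92 ± 0.27 SE, adjusted p = 4.9e-06, both from the quasi-likelihood fit in edgeR). It stood at 1.68, 1.86 and 1.72 in K562 and 3.83, 3.84 and 5.15 in K562+L, so that the labelled libraries were the lowest of the 4 groups.

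Of the 13727 genes tested, 2022 (14.7%) were higher and 1895 (13.8%) were lower in the labelled K562/IM+L libraries. Both an adjusted p below 0.05 and a log2 fold change beyond 1 in size were required. With library totals alone and no scaling factors, chosen as an alternative after seeing the data, 1636 were higher and 2397 lower (40.6% of calls higher against 51.6%), and the median log2 fold change of all genes shifted from -0.0069 to -0.19. These shares are the background against which every count below is read, and rose, fell or called refers to both thresholds. All 3 labelled libraries lay above all 3 K562/IM libraries for 34.9% of the genes and below them for 38.5%, so that lack of overlap alone was common. Among the gene lists examined, the shares called higher were greatest for globins, haem synthesis and cytosolic ribosomal proteins, and the shares called lower for ERK feedback, leukocyte and platelet genes. Among the called genes with the smallest p, ESPN, an actin-bundling protein, rose from 0.85, 0.77 and 0.7 CPM to 850.0, 906 and 779 (log2 fold change 10.12 ± 0.13 SE, adjusted p = 6.4e-08). FAXDC2, a fatty acid hydroxylase family member, rose from 9.61, 7.88 and 8.98 to 376, 383 and 386. CD53, a leukocyte tetraspanin, fell from 176, 179.6 and 190.1 to 3.94, 3.73 and 3.94 (log2 fold change -5.53 ± 0.082 SE, adjusted p = 7.2e-08). AASS, the first enzyme of lysine breakdown, fell from 31.8, 32.5 and 33.3 to 0.742, 0.74 and 0.797. EPHB6, an ephrin receptor, fell from 163, 157 and 164 to 5.11, 5.85 and 5.63. The groups did not overlap for any of these genes, and the gap was many times the spread within a group.

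**Figure D1:**
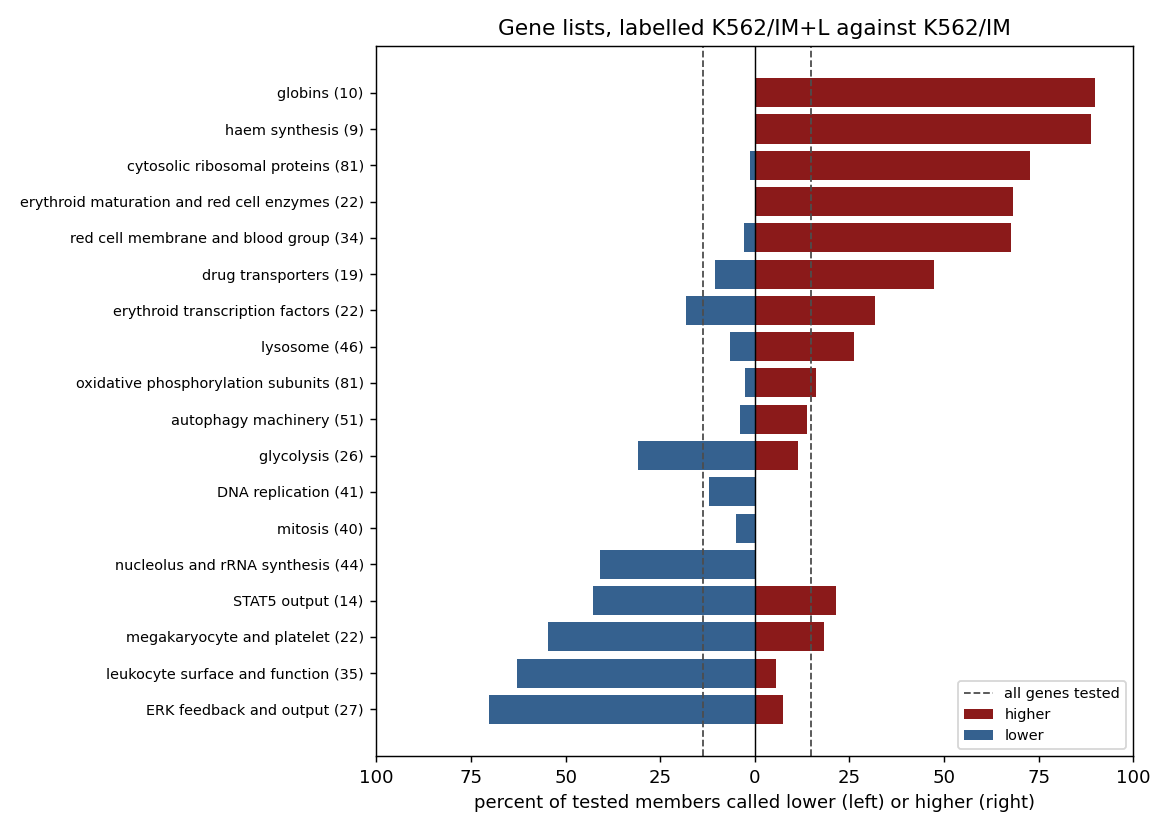
Share of the tested members of each gene list (number in brackets) that were called higher (right, red) or lower (left, blue) in the labelled K562/IM+L libraries against K562/IM, in percent, with dashed lines at the shares among all genes tested (14.7% higher, 13.8% lower). Globins, haem synthesis, ribosomal proteins and red cell lists reach far to the right, and ERK feedback, leukocyte and platelet lists far to the left.

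Globin genes rose together, with 9 of 10 tested members called higher, none lower, and a median log2 fold change of 4.26 against -0.0069 for all genes tested. HBZ, the embryonic alpha-like zeta globin on chromosome 16 from 152687 to 154503, stood at 98.5, 95 and 101 CPM in K562/IM and at 11932, 13216 and 8228 in the labelled libraries, 116-fold higher (log2 fold change 6.85 ± 0.20 SE, adjusted p = 3.9e-07). HBA1, an adult alpha globin gene, rose from 286, 269 and 242 to 5065, 5822 and 3793 CPM. Its near-identical copy HBA2 rose from 254, 239 and 214 to 4674, 5375 and 3565. HBG2, a fetal gamma globin gene, rose from 928, 995 and 1013 to 17702, 19293 and 13978 (log2 fold change 4.14 ± 0.13 SE, adjusted p = 5.1e-07). Its copy HBG1 rose from 487, 621 and 517 to 9613, 9280 and 6654. How reads were split within the alpha pair and the gamma pair is not described, so the share of each copy is uncertain. Delta globin (HBD) and theta globin (HBQ1) were also called, with log2 fold changes of 4.29 and 2.39 from means of 0.938 and 13.1 CPM. HBM, a minor alpha-like globin, had 0 counts in every K562/IM library and 1.14, 0.963 and 0.446 CPM in the labelled ones. The exception was HBE1, the embryonic epsilon globin, at 538, 546 and 547 CPM in K562/IM and 1093, 1164 and 843 in the labelled libraries, which missed the fold threshold (log2 fold change 0.95 ± 0.12 SE, adjusted p = 0.00026). Its groups did not overlap either, and it passed with upper-quartile normalization (1.01) and without the third labelled library (1.08). In bulk libraries such as these, a larger share of cells of one kind and more RNA per cell cannot be told apart.

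The order of the globins shifted as well. Per kilobase of annotated exon, HBG2 was the highest in both groups, at 1068 to 1166 CPM per kilobase in K562/IM and 16085 to 22202 in the labelled libraries. HBE1 came next in K562/IM, at 560.1 to 569, while HBZ stood at 126 to 133, below HBA1 (290.4 to 342). In the labelled libraries HBZ, at 10898 to 17505, lay above HBA1 (4543 to 6973), and HBE1 (877 to 1211) lay below both. HBZ and HBG2 overlapped in range across the labelled libraries, but within each library HBG2 was the higher. The place of HBG2 above HBZ depends on how reads were split between HBG2 and HBG1, which is uncertain. It also depends on annotated exon lengths, 869 bases for HBG2 and 1659 for its copy HBG1. In the parental line the zeta and gamma genes stood lower with lycorine, HBZ at 760.1 CPM in K562 and 349 in K562+L, and HBG2 at 3328 and 2043. The interaction of line and lycorine, the log2 effect labelled in K562/IM minus that in K562, was 7.96 ± 0.30 SE, adjusted p = 3.1e-09 for HBZ and 4.83 ± 0.21 SE, adjusted p = 8e-09 for HBG2. In that test over all 12 libraries, 8628 of 13995 genes (61.7%) passed at an adjusted p under 0.05, so that passing it is common.

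The enzymes that make haem rose along the path, with 8 of 9 tested members called higher and none lower. ALAS2, the erythroid form of the rate-limiting first enzyme, on chromosome X from 55009055 to 55031064, rose from 16.8, 17.2 and 18.5 CPM to 1155, 1170 and 962 (log2 fold change 5.99 ± 0.11 SE, adjusted p = 1.1e-07). ALAS1, the form used in other tissues, stood at 36.4, 34.6 and 37.9 against 32.7, 37.7 and 32.7, with overlapping groups and a log2 fold change of -0.05 (adjusted p = 0.61). Only the erythroid form of this step was therefore called. ALAD, the second enzyme, rose from 23.3, 23.8 and 23.4 to 206, 203 and 208. Of the later enzymes, UROS and UROD rose least, with log2 fold changes of 1.16 and 1.21, CPOX by 1.74, FECH, which inserts the iron, by 2.70, and PPOX most of these, by 3.88. PPOX held 27.8, 27.7 and 27.7 CPM in K562/IM and 412, 433 and 355 in the labelled libraries. Every labelled library lay above every K562/IM library for all 8 of the enzymes called.

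Genes that bring iron to this path rose in part, with 5 of 12 tested members of the list of haem and mitochondrial iron transport called higher and none lower. SLC25A37 (mitoferrin 1), which carries iron into the mitochondria of erythroid cells, rose from 49.5, 50 and 51.1 CPM to 1292, 1367 and 1341 (log2 fold change 4.76 ± 0.07 SE, adjusted p = 7.2e-08). ABCB10, a mitochondrial transporter needed for haem synthesis, rose from 83.3, 91.6 and 81.9 to 453, 435 and 512. TFRC, the transferrin receptor, rose from 380.0, 403 and 397 to 872, 829 and 1106. In the parental line it stood at 752 in K562 and 362 in K562+L (interaction 2.31 ± 0.17 SE, adjusted p = 5.1e-07). In the list of iron uptake, storage and export, 5 of 13 tested genes rose and 1 fell. NCOA4, the receptor that delivers ferritin for breakdown, rose by 2.02 on the log2 scale. FTH1, the ferritin heavy chain, rose by 1.46, while FTL, the light chain, held 1419, 1534 and 1346 against 1712, 1835 and 1334 CPM with overlapping groups. The gene that fell was SLC40A1 (ferroportin), the only known iron exporter of cells, from 156, 155 and 158 to 68.2, 68.7 and 72.

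The largest fitted change among the erythroid and haem lists was that of SLC4A1, on chromosome 17 from 44248385 to 44268141. It encodes band 3, the anion exchanger and main membrane protein of the red cell. It held 0.0958, 0.0833 and 0.187 CPM in K562/IM, or 8, 8 and 20 counts, and 1000, 923 and 1030 CPM in the labelled libraries (log2 fold change 12.95 ± 0.22 SE, adjusted p = 1.1e-07). K562 and K562+L held 3.61, 4.36 and 5.07 and 4.69, 4.8 and 6.88, so that no other group came near the labelled one. In the list of red cell membrane and blood group genes, 23 of 34 tested members rose and 1 fell, at a median of 2.36. The number that fell was 2 in place of 1 with DESeq2, with the counts divided by 4, with library totals alone and without the third labelled library. EPB42, which ties band 3 to the skeleton, rose from 0.443, 0.125 and 0.215 to 35.2, 36.8 and 34.5. GYPB, a sialoglycoprotein, rose from 13.2, 14.1 and 12.5 to 393, 398 and 310.2. The gene that fell was CD47, the signal that protects red cells and other cells from phagocytes, from 183, 187 and 175 to 57.9, 59.6 and 62. In the list of erythroid maturation and red cell enzymes, 15 of 22 rose and none fell, with a median of 1.52. AHSP, the chaperone of free alpha globin, rose from 8.5, 8.03 and 8.39 to 227, 221 and 156. EPOR, the erythropoietin receptor, rose from 19.8, 19.3 and 20.3 to 141, 148 and 131. BPGM, which makes the bisphosphoglycerate that loosens oxygen from haemoglobin, rose from 26.2, 26.4 and 25.1 to 152, 164 and 144. AHSP stood at 17.5 CPM in K562 and 3.91 in K562+L (interaction 6.76 ± 0.26 SE, adjusted p = 3.4e-09). The members not called numbered 10 in the membrane list and 7 in the maturation list.

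**Figure D2:**
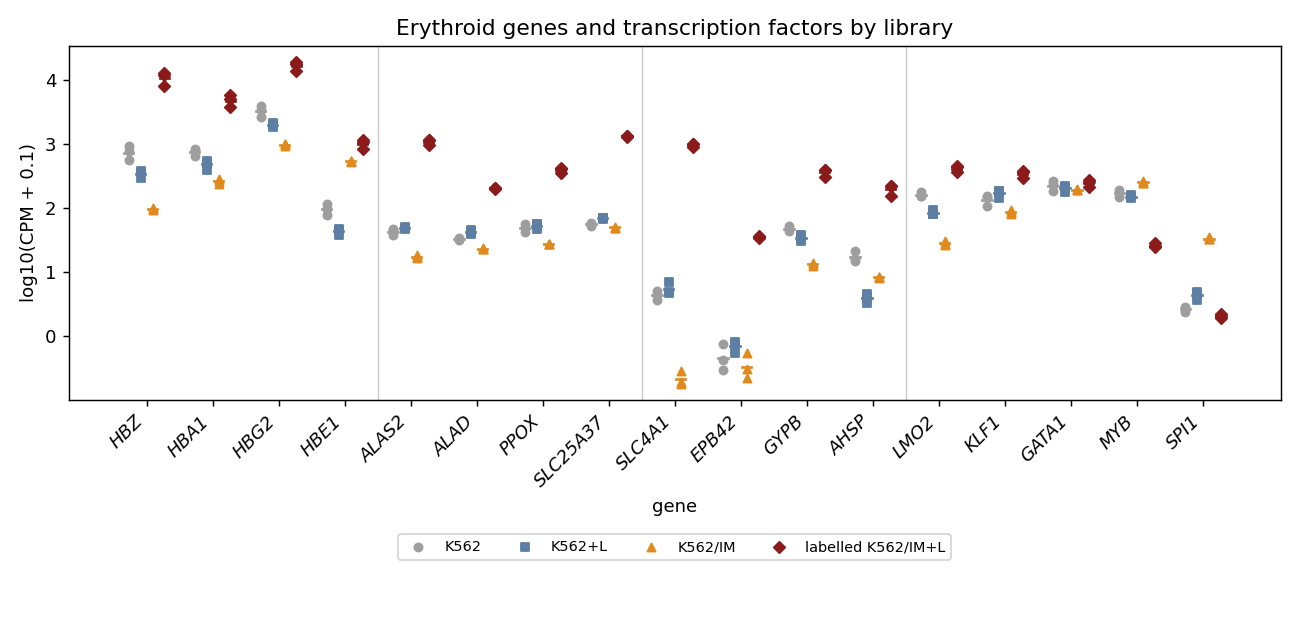
Level of erythroid genes and transcription factors in each of 12 libraries, as log10 of CPM plus 0.1, with 1 symbol per library and a bar at the group mean. For SLC4A1 the 3 labelled K562/IM+L libraries (red diamonds) sit at 1000, 923 and 1030 CPM and the K562/IM libraries (orange triangles) at 0.0958, 0.0833 and 0.187, while for GATA1 the 4 groups lie close together and for MYB and SPI1 the labelled libraries are the lowest.

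Promoters were examined for the letters AGATAA, the core bound by GATA factors, on both strands, since GATA1 is the master factor of this programme. The window ran from 250 bases before to 50 bases after the RefSeq start, and 15096 symbols had one. Of the 55 genes called higher in the lists of globins, haem synthesis, red cell membrane and erythroid maturation, 38 had a promoter in the table and 14 of these (36.8%) held the letters, against 5.46% of the 10943 promoters of genes tested and 7.34% of those of all genes called higher. Because these members were picked for erythroid roles, this is a description of their promoters and carries no test. The letters CACGTG, an E-box, were in 2.63% of the same 38 promoters against 9.92% of those of genes tested, and TGANTCA, the AP-1 core, in 7.89% against 4.72%. The 250 bases before the start are shown 5′ to 3′ for 3 genes that rose, ALAS2 (chrX:55030978-55031227, minus strand), EPB42 (chr15:43221019-43221268, minus strand) and PKLR (chr1:155301439-155301688, minus strand), and for 1 that fell, ABCB1 (chr7:87713296-87713545, minus strand), all taken from RefSeq in GRCh38.p14, with matches to AGATAA or its reverse complement in capitals.
ALAS2: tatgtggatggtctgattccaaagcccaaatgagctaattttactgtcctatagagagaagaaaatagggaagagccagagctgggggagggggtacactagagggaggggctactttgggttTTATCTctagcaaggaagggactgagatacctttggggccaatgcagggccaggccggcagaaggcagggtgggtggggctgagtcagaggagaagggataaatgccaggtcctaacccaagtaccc
EPB42: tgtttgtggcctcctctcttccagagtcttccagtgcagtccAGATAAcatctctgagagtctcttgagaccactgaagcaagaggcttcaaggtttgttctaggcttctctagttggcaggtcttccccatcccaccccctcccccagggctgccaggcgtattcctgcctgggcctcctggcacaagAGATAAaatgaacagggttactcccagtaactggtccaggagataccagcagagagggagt
PKLR: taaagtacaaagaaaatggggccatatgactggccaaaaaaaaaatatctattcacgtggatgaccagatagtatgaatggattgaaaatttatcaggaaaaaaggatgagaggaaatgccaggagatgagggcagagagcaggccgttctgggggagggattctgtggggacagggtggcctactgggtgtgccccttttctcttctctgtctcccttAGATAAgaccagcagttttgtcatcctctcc
ABCB1: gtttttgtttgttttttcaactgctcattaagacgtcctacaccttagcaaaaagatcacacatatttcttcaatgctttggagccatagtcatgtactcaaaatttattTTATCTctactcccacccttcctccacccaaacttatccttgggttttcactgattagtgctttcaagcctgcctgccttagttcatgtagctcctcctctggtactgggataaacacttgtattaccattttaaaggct
The match began 127 bases before the start in ALAS2, 208 and 61 in EPB42, 31 in PKLR and 140 in ABCB1. A match is a description of letters and does not show that a factor bound there.

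Among 22 tested transcription factors of erythroid cells, 7 rose and 4 fell. GATA1 itself held 195, 194 and 199 CPM in K562/IM and 262, 275 and 213 in the labelled libraries, under the fold threshold although the groups did not overlap (log2 fold change 0.38 ± 0.098 SE, adjusted p = 0.011). Its partner in the same complex, LMO2, rose from 31.3, 26.9 and 28.1 to 436, 451 and 367 (log2 fold change 3.89 ± 0.11 SE, adjusted p = 3.4e-07). TAL1, another member, rose from 57.7, 67.8 and 59.9 to 109, 324 and 368, where the first labelled library was far below the other two. KLF1, the factor of adult globin and membrane genes, rose from 87.3, 93.8 and 81.4 to 365, 377 and 293. GFI1B (log2 fold change 1.90), ZFPM1, the cofactor of GATA1 (1.41), NFE2 (1.32) and SOX6 (3.32, from 1.46 CPM) rose as well. The 4 that fell act in earlier or other blood cells. MYB, the progenitor factor on chromosome 6 from 135181315 to 135219173, fell from 246, 249 and 272 to 24.5, 25.6 and 28.4 (log2 fold change -3.26 ± 0.092 SE, adjusted p = 3.3e-07). SPI1 (PU.1), the myeloid factor that opposes GATA1, fell from 35.2, 33 and 33.1 to 1.81, 2.15 and 1.98 (log2 fold change -4.06 ± 0.11 SE, adjusted p = 2.9e-07). GATA2, the GATA factor of progenitors, fell from 85.4, 177 and 175 to 44.8, 44.5 and 19.9. MEIS1, a homeobox factor of progenitors, had a log2 fold change of -1.05 that dropped under the fold threshold with upper-quartile normalization and when the third K562/IM or the first labelled library was left out. The other 10 were not called, with log2 fold changes from -0.89 for RUNX1 and -0.55 for CBFA2T3 through 0.08 for BACH1, 0.09 for E2F2, 0.38 for LDB1, 0.45 for IKZF1, 0.47 for LYL1, 0.48 for FOXO3 and 0.57 for TCF3 to 0.93 for KLF3.

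Megakaryocyte and platelet genes divided, with 4 of 22 tested members higher and 12 lower (median log2 fold change -1.18). The list named 32 genes, and the low-count filter keeps a gene that is high in 1 group alone. The counts are therefore no measure of the family. ITGA2B, the alpha chain of the platelet fibrinogen receptor, fell from 184, 179 and 195 CPM to 18, 19.5 and 16.6. P2RX1, a platelet ATP-gated channel, fell from 63.3, 61.7 and 69.1 to 0.113, 0.0558 and 0.191. RAB27B, which serves platelet granules, fell from 92.6, 87.4 and 86 to 3.69, 3.64 and 4.44. The groups stood apart without overlap for these genes. GP6, the collagen receptor, fell by 2.25 on the log2 scale from a mean of 9.13 CPM. MMRN1 (multimerin 1) went from 1.65, 1.16 and 1.47 to 0 in all 3 labelled libraries. Against these, TUBB1, the platelet beta tubulin, rose from 4.02, 4.11 and 3.27 to 173, 146 and 192. GP1BB, a chain of the von Willebrand factor receptor, rose from 59.9, 61.3 and 45.3 to 831, 1016 and 648. The list therefore held no single direction, and its genes with the lowest labelled levels were at or near 0.

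Of 46 genes of leukocyte surface and function, 35 passed the low-count filter, and 22 of these fell and 2 rose (median log2 fold change -1.38). The filter keeps a gene that is high in 1 group alone, as CD44 and FYB1 were in K562/IM. These counts and the median therefore describe the genes tested and are no measure of the family. Summed CPM of the list was 2714, 2699 and 2813 in K562/IM and 870.6, 886.8 and 840.5 in the labelled libraries. It was 1064, 1057 and 1063 in K562 and 948, 983.6 and 1019 in K562+L. By this sum, which the most abundant genes lead, K562/IM was the group apart and the labelled libraries lay below the parental ones. CD44, the hyaluronan receptor, on chromosome 11 from 35138870 to 35232402, stood at 151, 149 and 155 CPM in K562/IM and had 0 counts in all 3 labelled libraries, and 0 also in every K562 and K562+L library. Against a floor of 3 counts per library, it was 4025-fold lower in the labelled libraries. Such folds are lower bounds only if the counts are single reads, which is uncertain. FYB1, an adaptor of T cell and platelet signalling, stood at 55.4, 55.5 and 54.5 in K562/IM. It had 0 counts in all 3 labelled libraries, 1464-fold lower against the same floor. Its partner LCP2 (SLP-76) stood at 80.8, 74.2 and 76.3 against 0, 0.0698 and 0.0425. LAPTM5, a lysosomal protein of blood cells, fell from 553, 526 and 578 to 24, 24.4 and 18.6. The Fc receptor FCGR2A fell from 175, 178 and 178 to 3.5, 2.39 and 3.01. The stem cell factor receptor KIT fell from 15.6, 15.5 and 16.5 to 1.57, 1.23 and 2.09. The integrin ITGAM fell from 3.09, 2.6 and 3.37 to 0.252, 0.433 and 0.553. For each of the genes from LAPTM5 to ITGAM the highest labelled library lay below the lowest K562/IM library. PTPRC (CD45), the phosphatase of all leukocytes, held 42, 44.9 and 40.6 against 29.7, 28.8 and 37.3 and was not called (log2 fold change -0.39, adjusted p = 0.019). CEBPA and CYBA were the 2 that rose, the first from a mean of only 0.699 CPM, and CYBA missed the fold threshold when the third K562/IM or the second labelled library was left out. The sums of the T cell markers, chiefly CD3D, and of the fibroblast markers given above moved the same way, and their part in this result was not tested.

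Most genes listed as ERK feedback and output fell, with 19 of 27 tested members lower and 2 higher. Their median log2 fold change was -2.15, the lowest median of the lists examined. The activity of ERK itself was not measured. SPRY4, a Sprouty inhibitor that ERK activity switches on, on chromosome 5 from 142310427 to 142326455, fell from 51.8, 48.9 and 51 CPM to 0.705, 0.712 and 0.51 (log2 fold change -6.28 ± 0.14 SE, adjusted p = 1.8e-07). SPRY2, of the same family, fell from 28.9, 31.8 and 28.2 to 6.58, 5.89 and 6.19. All 3 ETS factors of the PEA3 family fell, ETV4 from 75.1, 77 and 75.7 to 1.95, 2.27 and 2.13. ETV5 fell from 30.1, 28.9 and 30.2 to 0.503, 0.642 and 0.181. ETV1 fell from 42, 45.9 and 43.5 to 0.868, 0.768 and 1.19. For each of these factors the labelled libraries were the lowest of the 4 groups. EGR1, an immediate early factor, fell from 478, 468 and 463 to 156, 82.3 and 74.5, with the first labelled library the highest of its group. CCND1 (cyclin D1) fell from 62.6, 64.9 and 60.3 to 2.23, 2.41 and 1.9. DUSP6, the phosphatase of ERK itself, was called from a low level, 1.31, 1.13 and 1.73 CPM against 0.113, 0 and 0.276. PHLDA1, on chromosome 12 from 76025447 to 76033932, fell from 52.9, 53.1 and 49.1 to 2.49, 2.37 and 2.34. It stood at 3.29 in K562 and 10.1 in K562+L (interaction -6.03 ± 0.18 SE, adjusted p = 5.2e-10). Those that rose were SPHK1, sphingosine kinase 1, by 1.54 on the log2 scale and EPHA4, an ephrin receptor under 1 CPM in all 6 libraries. The other 6 were not called, FOS (0.43) and JUNB (-0.003) among them. In the list of AP-1 and immediate early genes, which shares members with this one, 4 of 34 rose (11.8%) and 8 fell (23.5%). Its median was -0.16.

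Genes listed as STAT5 output were lower in part, with 6 of 14 tested members down and 3 up. The survival kinase PIM1 fell from 517, 521 and 529.8 to 145, 71.5 and 124 CPM. PIM2, its relative, fell from 242, 249 and 249 to 25.5, 22.6 and 21.1 CPM. SOCS2 and CISH, which feed back on STAT5, had log2 fold changes of -1.20 and -1.57. In CISH the second K562/IM library was low (47.8, 13.7 and 51 against 13.1, 11.8 and 12.3), and it was no longer called without the third K562/IM library, at -1.29. BCL2L1 (BCL-XL) fell from 238, 237 and 238 to 75.9, 79.3 and 68.6, while MCL1 missed the fold threshold at -0.91. CCND2 (cyclin D2) went the other way, from 0.623, 0.448 and 0.299 to 27.9, 26.9 and 29.1. So did SOCS1, from 2.18, 2.12 and 1.46 to 6.69, 6.87 and 4.92. The fusion partners themselves were not called, as BCR held 92.4, 81.8 and 125 CPM against 75.6, 62 and 145 with overlapping groups (log2 fold change -0.05, adjusted p = 0.89). ABL1 held 274, 264 and 275 against 319, 313 and 350.4 (log2 fold change 0.30, adjusted p = 0.0072). Reads of the fused transcript cannot be told from those of the normal genes in this table. In the list of BCR, ABL and SRC family kinases and their adaptors, 6 of 17 fell. SYK alone rose. SRC fell from 21.9, 22.2 and 25 to 1.64, 1.1 and 0.956. LYN fell from 102, 105 and 107 to 43.2, 47.6 and 51.1. The lipid phosphatase INPP5D (SHIP1) fell from 32.8, 30.5 and 31.4 to 0.994, 0.963 and 1.34. The adaptor GAB2 fell from 191, 173 and 193 to 51.7, 48.2 and 62.4. The groups did not overlap for any of these genes.

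**Figure D3:**
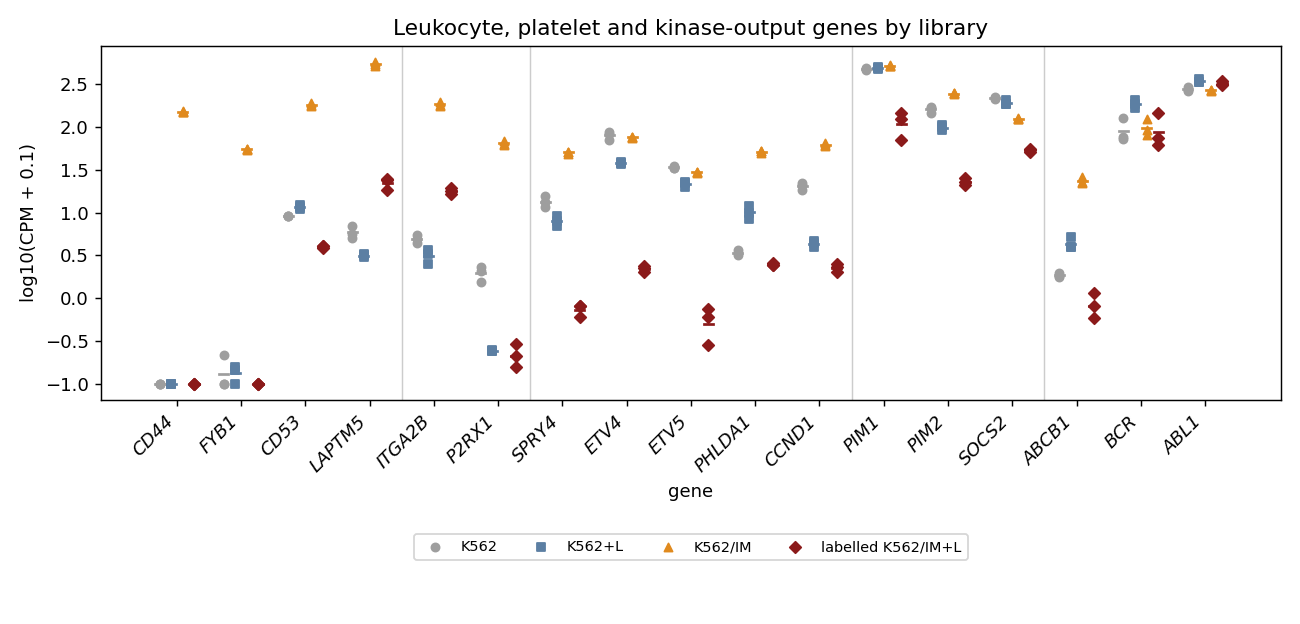
Level of leukocyte, platelet, ERK and STAT5 output genes and of ABCB1, BCR and ABL1 in each of 12 libraries, as log10 of CPM plus 0.1, with 1 symbol per library and a bar at the group mean. CD44 lies at 0 CPM in all but the K562/IM libraries (151, 149 and 155), ETV4, ETV5 and SPRY4 are lowest in the labelled libraries, and BCR overlaps between the groups.

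Most other transporters that move drugs did not fall as ABCB1 did. Of 19 tested, 9 rose and 2 fell (median log2 fold change 0.57). ABCG2, the breast cancer resistance protein, which also exports porphyrins, rose from 1.51, 2.31 and 1.74 CPM to 22.6, 20.2 and 21.7 (log2 fold change 3.56 ± 0.17 SE, adjusted p = 2.9e-06), and K562 and K562+L stood at 21.8 and 22.2. ABCC3 rose from 1.86, 2.27 and 2.34 to 13.7, 11.7 and 11.6. SLC29A1, the nucleoside carrier ENT1, rose from 140.4, 140.0 and 147 to 363, 359.7 and 341. SLCO1A2, an organic anion carrier, rose from 18.3, 17.5 and 19.5 to 52.5, 53.7 and 70.6. No labelled library overlapped K562/IM for any of these carriers. ABCB4, the neighbour of ABCB1 on chromosome 7 (2.80), the carnitine carriers SLC22A4 (2.18) and SLC22A5 (1.02) and ABCC6 (1.42, under 1 CPM throughout) were also among those that rose. SLC22A5 lay at the edge, under the fold threshold in the fit of all 12 libraries and when the second K562/IM or the third labelled library was left out, and ABCC6 was not called in the fit of 12. SLCO4A1, an organic anion carrier, fell by 1.85 on the log2 scale. The other 8 were not called, with log2 fold changes of -0.88 for ABCC1, -0.73 for ABCC5, -0.66 for ABCA2, -0.35 for SLC29A2, -0.06 for ABCC4, 0.01 for ABCA3, 0.42 for MVP and 0.57 for ABCC10.

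Isoforms and partners within one pathway moved in opposite directions in sugar metabolism. Of 26 tested glycolysis genes, 3 rose and 8 fell. SLC2A1 (GLUT1), the main glucose carrier of red cells, rose from 78, 79.7 and 77.9 CPM to 644, 626 and 589. SLC2A3 (GLUT3), its relative of neurons and leukocytes, fell from 249, 256 and 251 to 8.62, 7.13 and 8.62 (log2 fold change -4.93 ± 0.10 SE, adjusted p = 1.3e-07). Pyruvate kinase showed the same exchange, with the liver and red cell gene PKLR up from 31, 29 and 28.4 to 461, 451 and 428 (log2 fold change 3.95 ± 0.076 SE, adjusted p = 1.1e-07). PKM, the form of most other tissues, went down from 471, 452 and 492 to 53.6, 53.4 and 46 (log2 fold change -3.18 ± 0.088 SE, adjusted p = 3.1e-07). Hexokinase HK2 fell from 84.2, 85.1 and 89.8 to 3.59, 3.27 and 4.38, whereas HK1 held 443, 427 and 480.0 against 558, 520.4 and 534 and was not called. LDHA (lactate dehydrogenase A) and ENO1 (enolase 1) fell, with log2 fold changes of -1.90 and -1.26. GAPDH stood at 1708, 1625 and 1844 against 2568, 2698 and 2120, under the fold threshold at 0.54. SLC16A3, a lactate carrier, was the third that rose, from a mean of 0.62 to 2.86 CPM.

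**Figure D4:**
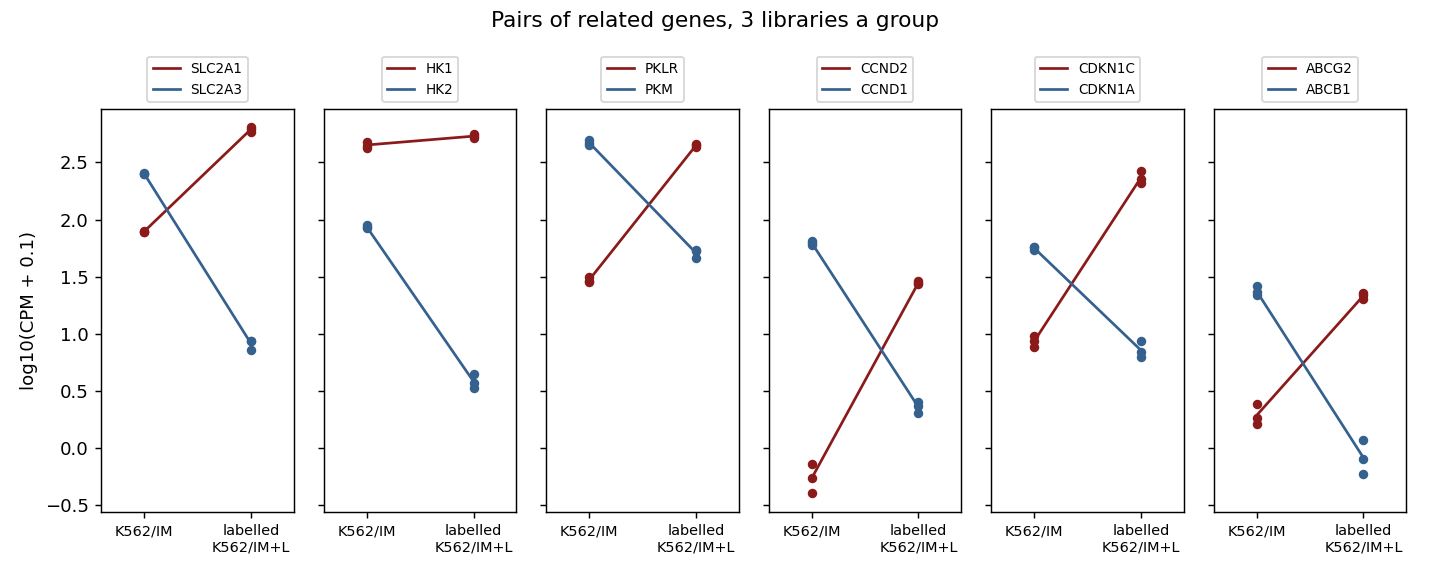
Pairs of related genes in the 3 K562/IM and the 3 labelled K562/IM+L libraries, as log10 of CPM plus 0.1, with 1 point per library and lines between group means. In all but one the red gene rose and the blue gene fell, and in the remaining one HK2 fell while HK1 was not called (levels of different genes are not length-corrected here).

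Most ribosomal protein genes were called higher, while calls among the genes that make ribosomal RNA and assemble ribosomes were all lower. Of 81 tested cytosolic ribosomal protein genes, 59 rose and 1 fell, with a median log2 fold change of 1.18. With library totals alone and no scaling factors, 38 rose, and RPL3 (0.89) and RPS6 (0.93) were below the fold threshold. The list summed to 54760, 57710 and 54150 CPM in K562/IM and to 133200, 136400 and 99180 in the labelled libraries. In the parental line the sums were 80650, 92840 and 112600 in K562 and 63750, 69780 and 60570 in K562+L. The labelled libraries thus overlapped K562 in range. RPLP0 rose from 2020, 1999 and 2166 CPM to 5365, 5402 and 4271. RPL3 rose from 1592, 1609 and 1731 to 3646, 3721 and 2906. RPS6 rose from 948, 1021 and 958 to 2229, 2299 and 1736. RPS27 rose from 472, 513 and 439 to 1578, 1598 and 1117. Many of these genes have near-identical processed copies in the genome, and how reads were split between copies is not described. In each of the 4 the third labelled library was the lowest of its group and still above K562/IM. The 1 that fell was RPL3L, a muscle paralog under 1 CPM, and the call was lost in 5 of the 6 fits that left out 1 library, whereas RPS26 (0.57) and RPL39L (-0.37) were among those not called. The median annotated exon length of these genes was 3002 bases, and short genes as a whole moved upwards here. Over the 13653 tested genes with an exon length, the median log2 fold change was 0.29 in the shortest quartile (up to 3087 bases of annotated exon), 0.051 and -0.095 in the next ones and -0.24 in the longest quartile, and 21.5% of the shortest and 9.96% of the longest were called higher. The ribosomal protein genes lay in all 4 quartiles, with 41, 22, 13 and 5 genes from shortest to longest, and how far length and their rise are tied was not tested. Subunits of oxidative phosphorylation had a median of 0.62, with 13 of 81 higher, near the background share, and 2 lower.

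On the other side, none of 44 tested nucleolar and ribosomal RNA synthesis genes rose and 18 fell (median -0.90). DDX21, a nucleolar helicase, fell from 544, 532 and 548 CPM to 126, 125 and 176. NOLC1 fell from 343, 328 and 349 to 97, 85.6 and 97.7. NCL (nucleolin) fell from 1006, 998 and 1005 to 459, 438 and 436. POLR1A and POLR1B, the largest subunits of RNA polymerase I, fell, with log2 fold changes of -1.32 and -1.34. NPM1 (nucleophosmin) held 1585, 1691 and 1633 against 1629, 1644 and 1484 with overlapping groups. In the parental line, DDX21 stood at 745 in K562 and 1310 in K562+L, and POLR1B at 94 and 134. Their interactions were -2.74 ± 0.20 SE, adjusted p = 4.8e-07 for DDX21 and -1.88 ± 0.10 SE, adjusted p = 3.8e-08 for POLR1B. MYC, the transcription factor that drives many of these genes, fell from 129.7, 122 and 136 to 61.6, 57.1 and 51.5 (log2 fold change -1.16 ± 0.087 SE, adjusted p = 2.2e-05). It stood at 141 in K562 and 236 in K562+L (interaction -1.93 ± 0.14 SE, adjusted p = 3.5e-07). MXD4, which competes with MYC for its partner MAX, rose from 22.7, 24.9 and 24.3 to 136, 139 and 122. MLXIPL (ChREBP), a glucose-sensing relative, rose from 9.77, 8.31 and 9.2 to 80.2, 93.9 and 77. MAX itself was not called (-0.56).

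Few genes of DNA replication and mitosis passed both thresholds. Of 41 DNA replication genes none rose and 5 fell, and of 40 mitosis genes none rose and 2 fell, both below the 13.8% of the background. At the adjusted p alone, with no fold threshold, 4615 of all 13727 genes tested were lower and 4554 higher. By that rule 28 of the 41 replication genes were lower and 5 higher (median log2 fold change -0.37). Of the 40 mitosis genes, 16 were lower and 7 higher (median -0.23), a share lower that was near that of all genes. MKI67, the proliferation marker Ki-67, held 372, 325 and 385 CPM against 226, 207 and 336, with overlapping groups and a log2 fold change of -0.46 (adjusted p = 0.056). CDKN1C (p57), a CDK inhibitor, rose from 8.48, 9.41 and 7.61 to 228, 265 and 209 (log2 fold change 4.81 ± 0.13 SE, adjusted p = 3.1e-07). CDKN1A (p21), another CDK inhibitor, fell from 57.2, 57.3 and 54.3 to 6.78, 8.46 and 6.13. CDKN1A stood at 12.2 in K562 and 21.5 in K562+L (interaction -3.80 ± 0.17 SE, adjusted p = 7.7e-09). Both the CDK inhibitors and the D-type cyclins thus held members that rose and members that fell. Of 27 genes of the BCL2 family and caspases, 4 rose and 3 fell, and the death-promoting BCL2L11 (BIM) rose from 22.7, 21.7 and 22.1 to 53, 50.9 and 60. BMF, of the same kind, rose from 3.04, 2.89 and 2.72 to 6.63, 6.89 and 7.99. The protective BCL2 rose from 0.659, 0.416 and 0.551 to 1.84, 2.94 and 1.97.

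Autophagy genes held 7 of 51 tested members higher, near the background share, and 2 lower, with a median log2 fold change of 0.26. With no scaling factors 1 was higher, GABARAP lay at the fold threshold and 4 were lower. SQSTM1 (p62), the autophagy receptor, held 169.7, 173 and 162 CPM against 256, 251 and 215, a log2 fold change of 0.54 (adjusted p = 0.00077) under the fold threshold. It stood at 133 in K562 and 310.3 in K562+L (interaction -0.71 ± 0.12 SE, adjusted p = 0.00035). OPTN, another receptor, rose from 83.8, 85.7 and 88.5 to 285, 287 and 261. GABARAP, which coats the autophagosome, rose from 68.5, 69.8 and 66.2 to 159.8, 174 and 125. Of 46 lysosomal genes, 12 were higher and 3 lower, with a median log2 fold change of 0.46. The protease CTSL rose from 77.3, 64.4 and 78.5 to 339.7, 347 and 289. CTSD, another, rose from 82.2, 85.1 and 85.3 to 269, 276 and 214. PSAP, the precursor of sphingolipid activators, rose from 339, 341 and 344 to 1037, 982 and 933. CTSS, a protease of antigen-presenting cells, fell from 31.8, 34 and 32.7 to 2.37, 1.86 and 2.28. The groups did not overlap for any of these lysosomal genes.

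Some genes were present in one group and at 0 in the other. Present was set at 100 or more counts in every library of a group. By that rule 33 genes were present in K562/IM and at 0 in all 3 labelled libraries, of which 9 were at 0 also in all 6 libraries of the parental line, CD44 among them. In the other direction, 19 genes were at 0 in K562/IM and present in the labelled libraries, and 7 of these were also present in every K562 and K562+L library. EPSTI1, an interferon-induced gene on chromosome 13 from 42886388 to 42992271, was one of the 7 and stood at 14.6, 17.2 and 14.6 CPM in the labelled libraries, with means of 13 in K562 and 5.32 in K562+L. PAGE1, a cancer-testis gene, stood at 13.2, 16.9 and 10.4, with 13.9 in K562 and 10.2 in K562+L, and PPFIBP2, a liprin, at 13.7, 14 and 12.5, with 8.22 and 6.8. LDOC1 stood at 3.28, 3.22 and 3.63, with 3.41 and 2.71, so that for these 4 genes K562/IM was the group apart. Against the floor of 3 counts, EPSTI1 was 494-fold, PAGE1 432-fold, PPFIBP2 428-fold and LDOC1 108-fold higher where labelled with lycorine than in K562/IM. These folds are lower bounds only if the counts are single reads. No gene was present in the labelled libraries and at 0 in the other 3 groups, and no gene was at 0 in the labelled libraries and present in the other 3 groups. COL2A1, a cartilage collagen, was at 0 in K562/IM and at 3.71, 4.87 and 3.44 in the labelled libraries, with K562 and K562+L at 0.0411 and 0.0359. COL1A2, a fibroblast collagen, went from 15.4, 18.1 and 18 to 0.0881, 0 and 0. CALB1 (calbindin), a calcium-binding protein, was among the called genes with the smallest p, at 53.2, 55.4 and 52.6 CPM in K562/IM and 2.73, 2.48 and 2.64 in the labelled libraries. K562 libraries held 5.13, 4.89 and 5.46 and K562+L libraries 31, 35.7 and 35.4, so that its direction with lycorine was opposite in the parental line (interaction -7.08 ± 0.12 SE, adjusted p = 1.3e-11). ABCB1 showed the same crossing, since it stood at 1.76 in K562 and 4.28 in K562+L (interaction -6.23 ± 0.33 SE, adjusted p = 3.1e-08).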

How the data were processed

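Total RNA was extracted with TRIzol and made into libraries from polyadenylated RNA, 3 for each of 4 groups. The authors deposited 1 table of estimated counts per gene symbol, whole numbers that were not normalized, in which 66.1% to 70.3% of the values up to 25 in a library were a multiple of 4 or 1 above one, so the deposited counts may not be single reads. The submitters' processing notes name FastQC, STAR, StringTie, DESeq2 and hg38, with no role, and exact settings are not given in the sources used here. Totals ran from 75093844 to 107344598 counts over the 12 libraries. For most genes named the spread between libraries, and not counting error, therefore set the precision. The floor of 3 counts covers counting error only, and does so only if 1 count is 1 read. All columns were used (0 belonged to other samples).

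Groups were taken from the sample labels. Genes were kept by filterByExpr with a minimum count of 10 and tested with edgeR 4.0.16 in R 4.3.3 (TMM, quasi-likelihood test, Benjamini-Hochberg adjustment over all genes tested), with calls requiring an adjusted p below 0.05 and a log2 fold change beyond 1 in size. The interaction of line and lycorine used the 12 libraries together, with the same limit on the adjusted p. The script was checked on simulated data first. DESeq2 1.42.0, other normalizations, filters and thresholds, a replicate block, counts divided by 4 and leaving out each library were the alternatives, with library totals alone added later. CPM used TMM sizes over 12 libraries, and positions and exon lengths came from GENCODE 29 on GRCh38.

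Named genes were chosen from the called genes with the smallest p, from the called members with the largest changes and the most abundant uncalled members of each list, and from all globins, haem enzymes, erythroid factors and drug transporters, with some listed by name. EPSTI1, PAGE1, PPFIBP2 and LDOC1 were named after their values were seen. The members and lists were chosen with earlier results of these data known. Members under the count filter were not tested, such as 10 of 32 platelet and 11 of 46 leukocyte genes. Some single genes are not reported here.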

Additional observations from a re-analysis of the deposited data

Results flagged for a closer look

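The labelled lycorine effect in K562/IM (K562/IM+L minus K562/IM) was set against that in the parental line (K562+L minus K562) as an interaction over all 12 libraries, and 8628 of 13995 genes differed at an adjusted p under 0.05 from edgeR's quasi-likelihood test. Among the genes described above, it was positive for HBZ, at 7.96 (standard error 0.30), AHSP, at 6.76 (standard error 0.26), HBG2, at 4.83 (standard error 0.21), and TFRC, at 2.31 (standard error 0.17), all on the log2 scale. It was negative for CALB1, at -7.08 (standard error 0.12), ABCB1, at -6.23 (standard error 0.33), PHLDA1, at -6.03 (standard error 0.18), CDKN1A, at -3.80 (standard error 0.17), DDX21, at -2.74 (standard error 0.20), MYC, at -1.93 (standard error 0.14), POLR1B, at -1.88 (standard error 0.10), and SQSTM1, at -0.71 (standard error 0.12). For SQSTM1 both lines were higher with lycorine as labelled and differed in size, and for the other 11 the group means moved in opposite directions. The treated K562/IM libraries carry the group name in the labels that the drawings of the study do not give them, so that which libraries make up this contrast rests on the labels alone, and the part of that in these differences was not tested. No group had more than 3 libraries, so single outlying libraries were not looked for by rule.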

How the results depend on the processing

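The 2022 higher and 1895 lower calls stayed within 1.5 times those numbers with DESeq2 (3943 in all), the median-of-ratios and upper-quartile normalizations, library totals alone (an alternative added after seeing the data, which turned the balance to 1636 higher and 2397 lower), either other low-count filter, a stricter adjusted p, all 12 libraries in 1 fit and counts divided by 4. The fold threshold moved them further, to 4554 higher and 4615 lower (9169 in all) without one and to 887 and 837 (1724 in all) at a log2 fold change over 2. Leaving out each library in turn gave 3790 to 4323 calls, of which 1936 to 2130 were higher and 1800 to 2193 lower, with the most calls when the third labelled library was left out. With the replicate block there were 3807 calls (1923 higher and 1884 lower), and 8319 of the differences between the lines passed. The same-numbered libraries did not pair, with correlations of their deviations of -0.015, 0.025 and 0.081. Among the genes named, the block changed the call of RPL3L alone, and of the lists counted it also moved those lower among red cell membrane genes from 1 to 2. The differences between the lines numbered 8043 to 8906 when each library was left out.

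Over 15 refits of 191 named genes, 2800 values kept their direction and their side of the thresholds, 23 dropped below a threshold, 5 passed one and 15 changed sign, the last all of genes not called, while the remaining 22 had no value because the low-count filter of that refit removed the gene. Leaving out each library in turn gave log2 fold changes of -0.217 to 0.022 for ABCC4, -0.506 to 0.17 for BCR, -0.074 to 0.049 for ABCA3, -0.093 to 0.20 for BACH1 and -0.045 to 0.028 for NPM1, where the value without the third labelled library was the lowest for ABCC4, BCR, ABCA3 and BACH1 and the highest for NPM1. ABCA3 was -0.015 in the fit of all 12 libraries, with library totals alone ABCA3 was -0.176, E2F2 -0.0992 and BACH1 -0.102, and with upper-quartile normalization ALAS1 was 0.0070 and NPM1 0.039. Library totals alone also took UROS, SYK, SLC22A5 and CYBA below the fold threshold and ABCC1, RUNX1 and MCL1 past it. The cause was not tested. Low counts piled up near multiples of 4, and what this does to the counting error of genes at low levels was not measured.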

Other observations

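Receptors and matrix genes outside the blood lists moved in both directions, with no explanation offered here. In the Notch pathway 8 of 17 tested genes fell and 2 rose (median log2 fold change -0.77), with the receptors NOTCH1 going from 64.1, 58 and 67.3 to 6.54, 7.81 and 9.11 CPM and NOTCH2 from 7.3, 6.01 and 8.2 to 0.264, 0.6 and 0.255, and the target genes HES1 from 9.55, 9.91 and 7.78 to 1.27, 0.935 and 0.882 and HEY1 from 21.7, 20.6 and 20.8 to 0.944, 0.837 and 1.7. The ligand DLL4 rose by 1.93 on the log2 scale. Of 24 receptor tyrosine kinases 6 rose and 5 fell. INSR, the insulin receptor, rose from 0.18, 0.208 and 0.261 to 6.3, 7.58 and 7.69. Of 42 collagens 14 were removed by the low-count filter, which keeps a gene that is high in 1 group alone, so the calls among the other 28 (11 higher and 10 lower) are no measure of the family. Examples are COL6A1 from 0.946, 0.937 and 1.31 to 16.6, 14.7 and 15.8 and COL3A1 from 0.251, 0.208 and 0.149 to 0, 0 and 0. Of 26 integrins 20 were tested, with 3 higher (15%) and 8 lower (40%). Of 29 tetraspanins 21 were tested, with 5 higher (23.8%) and 8 lower (38.1%), and at the adjusted p alone 10 were higher and 10 lower. Of 26 TGF-beta and ID genes 22 were tested, with 2 higher (9.09%) and 5 lower (22.7%), among the latter the differentiation inhibitor ID3 at -2.94. The shares of all genes tested were 14.7% and 13.8%. Because of the same filter, these counts and those of the receptor tyrosine kinases (24 of 30 tested) are no measure of the families.

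Classical HLA genes fell where they were called, HLA-B from 2.43, 2.47 and 2.52 to 0.327, 0 and 0.149 CPM and HLA-C from 7.75, 7.96 and 9.45 to 1.07, 2 and 1.96. In their list 21 of 27 genes were tested, with 2 higher and 5 lower, and the limit set by the low-count filter holds here too. These genes are highly alike, so reads may be split between them. Of 27 heat shock and chaperone genes none rose and 5 fell, including HSPH1 (-1.57) and the HSP90 cochaperone FKBP4 (-1.75). In the integrated stress response and amino acid list 3 of 37 rose and 5 fell, and the largest rise was that of the glycine transporter SLC6A9, from 7.17, 6.62 and 6.29 to 48.3, 45.8 and 50.7. Proteasome subunits (2 of 37 higher, 0 lower), mitochondrial ribosomal proteins (4 of 77 higher, 1 lower) and replication-dependent histones (6 of 54 higher, 2 lower) stayed under the background shares of 14.7% and 13.8%.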
